A study of Mus musculus with 12 samples.

Results

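The comparison described here sets LPS-treated N9 microglia kept in a medium with raised sugar, whichever the sugar, against LPS-treated N9 microglia in control medium. N9 is an immortalised mouse microglial cell line, and every library came from that single line. Of the 12 RNA-seq libraries in the series, 9 enter the comparison: 3 from high glucose medium with LPS, 3 from high fructose medium with LPS, and 3 from control medium with LPS. The remaining 3, from control medium without LPS, helped estimate the spread between libraries. Control medium was glucose-free DMEM with dialysed serum to which 3 mM glucose and 5 mM fructose had been added, so the control cells also had fructose. High glucose medium was this medium with 15 mM glucose and high fructose medium was this medium with 15 mM fructose; the labels do not say whether 15 mM is the amount added or the final concentration. Cells spent 18 h in their medium and then 6 h with LPS at 1 µg/ml, at 250000 cells per well. No group with another solute at the same concentration was analysed here. The effect common to both sugars was the mean of the glucose effect and the fructose effect, each taken against control medium with LPS, on a log2 scale, and all 54532 genes of the count table were eligible. Of these, 12766 had enough reads to be tested. The libraries are called control 1 to 3, glucose 1 to 3 and fructose 1 to 3, and all of them were LPS-treated unless stated. Nothing in the labels says whether replicates were separate cultures, so the p-values measure the spread between these samples, which may be technical.

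LPS binds Toll-like receptor 4 on microglia. One branch of its signalling, through the adaptor MyD88, activates NF-kB and MAP kinases and induces cytokines such as TNF; the other, through TRIF, activates the transcription factor IRF3, interferon-beta release and, through the interferon receptor, a large set of antiviral genes. Glucose enters cells mainly through GLUT1, is phosphorylated by hexokinase and, as glucose 6-phosphate, activates the transcription factors MondoA and ChREBP; part of it feeds the hexosamine pathway, whose product is used by the enzyme OGT to modify proteins. Fructose is carried by GLUT5 and phosphorylated by ketohexokinase, or made from glucose through sorbitol by aldose reductase.

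Library totals ran from 15453776 to 17015639 counts in the 9 libraries. Of the 13 markers that define macrophages and microglia, 12 were tested and 2, Csf1r and Irf8, were called lower with sugar. Aif1, with 2 to 9 counts per library, was not tested. The summed level was 4900 to 5080 CPM (counts per 1000000 mapped counts, scaled by TMM) in the control libraries and 4840 to 5210 in the sugar libraries. P2ry12, a marker of resting microglia in tissue, had 1 to 6 counts per library, and Tmem119, another such marker, had 92 to 156. The share of counts from ribosomal RNA genes was 0.457% to 0.585% in the control libraries, 0.338% to 0.549% with glucose and 0.313% to 0.423% with fructose. An exact two-sided permutation test over the 84 ways to choose the 3 controls cannot give a p below 0.0119, so a single one of 13 such measures cannot pass after Benjamini-Hochberg adjustment, and none did (lowest raw p = 0.0476, for the oligodendrocyte marker sum). Neuron markers summed to 29.7 to 32.6 CPM in control, 29.7 to 34.8 CPM with glucose and 45.1 to 53.4 CPM with fructose, and astrocyte markers to 94.1 to 103, 95.5 to 111 and 114 to 118 CPM. Most of the neuron sum came from Tubb3 (10.7 to 32.1 CPM over the 9 libraries) and Map2 (13.1 to 19.3 CPM), and most of the astrocyte sum from Gja1. Oligodendrocyte markers summed to 41.7 to 42.7 CPM in control and 43.1 to 49 CPM with sugar, and endothelial markers to 96.4 to 109 and 92.1 to 110 CPM. Fibroblast markers summed to 0.955 to 8.44 CPM in control libraries and to 1.22 to 20.3 CPM in sugar libraries, and epithelial markers, mostly Krt8 and Krt19, to at most 4.95 and 24.4 CPM, the latter in glucose 2. Of the markers of these other cell types, 3 were called. They were Tubb3 (1 of 4 tested neuron markers, described below), Gja1 (1 of 3 astrocyte markers) and Vwf (1 of 4 endothelial markers). None was called of the 2 tested oligodendrocyte, 4 fibroblast and 2 epithelial markers, and no lymphocyte marker was tested. Over all genes tested, 3.94% were called, 1.61% higher and 2.33% lower. Gja1, a gap junction protein, was at 73 to 78 CPM in control, 76.6 to 90.8 CPM with glucose and 89.1 to 95.2 CPM with fructose (0.22 ± 0.05, adjusted p = 0.0234); it did not pass without control 1 (adjusted p = 0.0561), control 2 (0.11), control 3 (0.16), fructose 1 (0.051) or fructose 3 (0.0521). Vwf, von Willebrand factor, was at 44.1 to 50.4, 32.8 to 35.5 and 43.2 to 46.9 CPM (-0.30 ± 0.06, adjusted p = 0.00856), lower with glucose than with fructose (difference 0.42, adjusted p = 0.0026), and did not pass without control 2 (adjusted p = 0.0774) or control 3 (0.072). The part of these other cell types' markers in the results was not tested.

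Libraries of a group differed by more than counting error, with a chi-square per degree of freedom of 3.89 to 9.8 within the LPS-treated groups, highest between fructose 1 and fructose 2. Principal components of the 9 libraries held 21% and 17.5% of the variance in the first and second. On the first, glucose 1 (-10.6) and fructose 2 (-10.8) lay among the controls (-16 to -9.12), and the other sugar libraries lay at 2.22 to 25.5. On the second, fructose 2 stood apart at -32.9, with the others at -8.29 to 14.2.

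In all, 503 genes passed the test for the average of both sugars (edgeR quasi-likelihood test, Benjamini-Hochberg adjusted p below 0.05), which is 3.94% of those tested. Of these, 205 were higher with raised sugar (1.61%) and 298 were lower (2.33%). Counts of called genes on the lists below are to be read against these shares. The changes were small: the median was 0.27 on the log2 scale for the higher genes and -0.32 for the lower ones. Only 11 called genes changed at least 2-fold, 6 upward and 5 downward, and 9 of the 11 averaged under 6 CPM in the control libraries. Over all genes tested, 423 (3.31%) had all 6 sugar libraries above all 3 controls and 448 (3.51%) had all 6 below. This held for 163 of the 205 higher genes and 188 of the 298 lower ones, while the groups overlapped for the other 152. The largest rises and falls named below were taken only from genes whose groups did not overlap, so their separation was fixed by the choice. Without fructose 2 there were 197 higher and 306 lower genes, and without glucose 1 there were 194 and 276. In a bulk sample, fewer cells in a given state and less RNA per cell cannot be told apart.

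A gene can pass the test for the average because both sugars moved it or because a single sugar moved it a long way, so fructose was also tested against glucose in the same model. That test called 475 genes (3.72% of those tested), 235 higher with fructose (1.84%) and 240 lower with it (1.88%). Of the 503 genes called for the average, 185 (36.8%) were also called there. Among the 133 lower genes of that kind, 120 were lower still with fructose and 13 with glucose; among the 52 higher ones, 49 were higher still with fructose and 3 with glucose. For the other 318 genes the sugars were not called different, which does not show that they act alike; for 281 of them the 95% interval of the difference lay within 0.5 log2 units either way. A 9-library model that treats the 6 sugar libraries as 1 group counts every difference between the sugars as spread. It called 114 of the 12548 genes it tested (0.909%), 55 higher and 59 lower (0.438% and 0.47%), 54 and 59 of them among those above. Where a gene below is said to hold in the 1-group model, its adjusted p there was below 0.05.

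**Figure D1:**
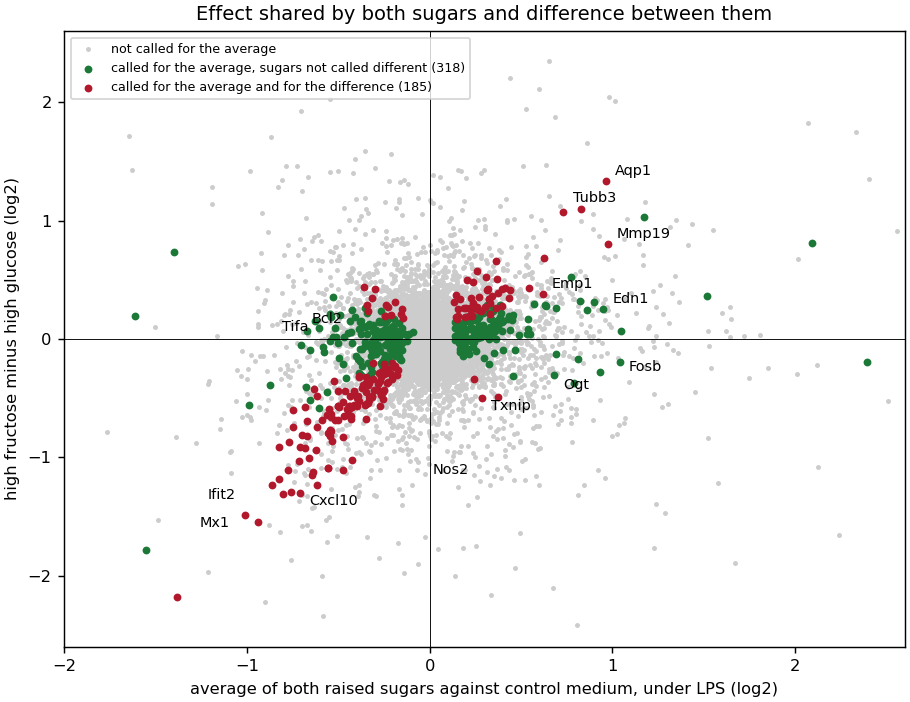
Each point is a gene tested, with the average effect of both raised sugars against control medium on the x axis and the difference of fructose minus glucose on the y axis, both in log2 units under LPS. The 318 green genes lie near the horizontal axis for the most part, while the 185 red genes run mainly to the lower left, with Ifit2, Mx1 and Cxcl10, and to the upper right, with Mmp19, Tubb3 and Aqp1. The axes leave out 31 genes, none of them called.

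The gene with the smallest p-value was Emp1, which codes for epithelial membrane protein 1, a small tetraspan membrane protein (GRCm38 chromosome 6, 135362545 to 135383173, plus strand). Its level was 466, 464 and 462 CPM in the control libraries, 611, 640 and 622 CPM with glucose, and 829, 817 and 793 CPM with fructose. Every sugar library lay above every control, and the fructose libraries lay above the glucose ones. The average change was 0.62 ± 0.04 (SE) on the log2 scale (adjusted p = 6.49e-08), with 0.43 for glucose and 0.81 for fructose, and it held in the 1-group model. Mmp19, a matrix metalloproteinase (chromosome 10, 128790910 to 128800824), showed the same order: 73.9, 62.5 and 58 CPM in control, 93.2, 93.4 and 103 CPM with glucose, and 160, 170 and 175 CPM with fructose. Its average change was 0.98 ± 0.07 (adjusted p = 3.05e-07), and fructose exceeded glucose by 0.8 (adjusted p = 3.56e-06). Antisense genes cover 28.3% of its exonic bases, and whether counting used the strand is not stated in the sources. Ank, a membrane protein that carries pyrophosphate and citrate out of cells, rose by 0.37 ± 0.04 (adjusted p = 1.57e-05) from 312 to 323 CPM in control to 352 to 367 CPM with glucose and 461 to 476 CPM with fructose.

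A promoter of Emp1 is shown because Emp1 led the genes that rose with both sugars and its window holds the letters of an AP-1 site, which binds FOS and JUN family proteins. The sequence is from RefSeq (GRCm38.p6), runs 5′ to 3′ on the gene's strand from 250 bases before the start to 50 after it, and has the match in capitals, on the opposite strand 145 to 139 bases before the start.
Emp1: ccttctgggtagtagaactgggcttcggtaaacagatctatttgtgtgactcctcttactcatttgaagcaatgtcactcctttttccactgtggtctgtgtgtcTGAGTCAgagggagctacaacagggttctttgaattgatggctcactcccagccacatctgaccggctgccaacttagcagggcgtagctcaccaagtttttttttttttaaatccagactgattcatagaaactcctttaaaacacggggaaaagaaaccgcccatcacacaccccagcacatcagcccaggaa
The letters searched were TGACTCA on either strand, which occur in 5.2% of the 32851 promoters of the same length in that table. Of the 79 named called genes with a promoter there, 11 held a match, against 5.95% of all genes there. The 11 include genes that rose, such as Emp1 and Mmp13, and genes that fell, such as Cxcl10, Rsad2, Prdx1 and Fgd4. The table has 2 promoters for Emp1, and the other holds none of the letters searched. A match is a description of letters and not a measured site.

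Ogt, the enzyme that attaches N-acetylglucosamine to proteins (chromosome X, 101640060 to 101684351), stood at 34.7, 37.5 and 40 CPM in control, 57.7, 72.7 and 69.5 CPM with glucose and 45.4, 57.4 and 59.3 CPM with fructose. No sugar library fell into the control range. The average change was 0.68 ± 0.09 (adjusted p = 0.000303), and fructose minus glucose was -0.30 (95% interval -0.52 to -0.08, adjusted p = 0.131). Mgea5, the enzyme that removes the same group, fell by 0.27 ± 0.06 (adjusted p = 0.00996) from 96.4 to 110 CPM in control to 70.4 to 96.5 CPM with sugar; without control 3 it did not pass (adjusted p = 0.0978). These were the only 2 called of the 6 tested genes on the hexosamine list, which otherwise holds the enzymes that make the sugar donor.

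Edn1, which codes for the peptide endothelin-1, was at 4.66, 4.36 and 5.37 CPM in control, 10.1, 8.9 and 6.5 CPM with glucose and 10.1, 11.2 and 9.08 CPM with fructose. The average change was 0.95 ± 0.15 (adjusted p = 0.00103), and the lowest sugar library exceeded the highest control. Snai1, a transcriptional repressor of the Snail family, rose by 0.69 ± 0.13 (adjusted p = 0.00411) from 4.78 to 5.55 CPM to 7.04 to 9.38 CPM. Prrg4, a membrane protein with a Gla domain, and Igsf9b, an adhesion protein of the immunoglobulin superfamily, were picked out after their values were seen, for their small p-values in the 1-group model. Prrg4 was at 89 to 90.4 CPM in control, 115 to 131 CPM with glucose and 121 to 135 CPM with fructose, a change of 0.49 ± 0.05 (adjusted p = 2.72e-05) with 0.04 between the sugars (95% interval -0.08 to 0.15). Igsf9b rose by 0.53 ± 0.08 (adjusted p = 0.000612), with 0.04 between the sugars (95% interval -0.15 to 0.23). Edn1 and Snai1 held in the 1-group model. Prrg4 and Igsf9b were picked by that model, so their passing it adds no support.

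**Figure D2:**
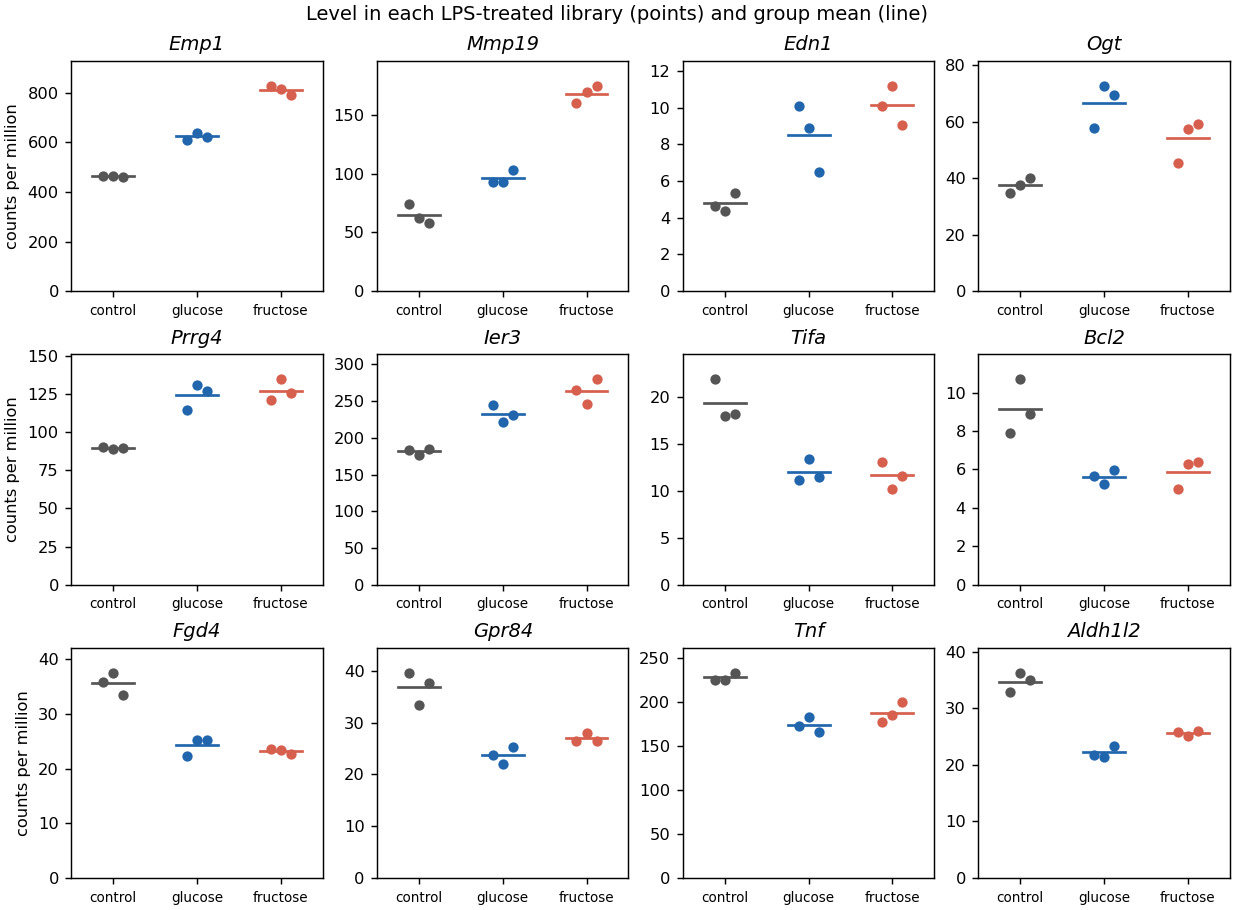
Level in CPM (y axis, from 0) in each LPS-treated library for 12 genes, with a point per library and a line at the mean of each group. In Emp1, Mmp19, Edn1, Ogt, Prrg4 and Ier3 the 6 sugar libraries all lie above the 3 controls, and in Tifa, Bcl2, Fgd4, Gpr84, Tnf and Aldh1l2 they all lie below. Genes named as the largest rises or falls had to show this separation, so for them it was fixed by the choice. Only in Emp1 and Mmp19 of the 12 was fructose called different from glucose.

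On the list of matrix metalloproteinases and their inhibitors, 4 of 17 tested genes rose, and the list's median was 0.06, against 0.0011 over all genes tested. Among them were Mmp19, Adamts1 and Mmp13, a collagenase, which was at 6.15 to 7.39 CPM in control, 12.4 to 13.8 CPM with glucose and 7.83 to 12.8 CPM with fructose (0.79 ± 0.17, adjusted p = 0.00993). Mmp13 did not pass without control 2 (adjusted p = 0.0659) or control 3 (adjusted p = 0.0733), and the list's count was 2 without control 2. Adamts1, a secreted protease, was at 280 to 304 CPM in control and 302 to 377 CPM with sugar, so the groups overlapped (0.21 ± 0.05, adjusted p = 0.02); it did not pass without control 1 (adjusted p = 0.156), control 2 (0.0769) or glucose 3 (0.0514). Of 18 tested integrin and adhesion genes, 4 rose: Emp1, Anxa2, Itgb7 and Cd44, the hyaluronan receptor. The list's median was 0.01, and 8 of the 18, the 4 among them, were called different between the sugars, against 3.72% of all genes tested. Cd44 was at 1210 to 1270 CPM in control, 1210 to 1390 CPM with glucose and 1550 to 1700 CPM with fructose; its average of 0.24 ± 0.04 (adjusted p = 0.00276) joins 0.09 for glucose with 0.39 for fructose, and these differed (adjusted p = 0.00135). Anxa2, annexin A2, was at 990 to 1020 CPM in control, 938 to 1010 CPM with glucose and 1200 to 1310 CPM with fructose: the glucose libraries overlapped the controls, and the average of 0.14 ± 0.04 (adjusted p = 0.0393) joins -0.04 with 0.33 (difference 0.38, adjusted p = 4.35e-05). It did not pass without control 1 (adjusted p = 0.0967), control 2 (0.187), control 3 (0.2), glucose 1 (0.067), glucose 2 (0.0591), fructose 1 (0.0919) or fructose 3 (0.0748). Itgb7, the integrin beta 7 subunit, was at 96.2 to 98.1, 102 to 110 and 120 to 124 CPM (0.23 ± 0.04, adjusted p = 0.00281), with 0.12 for glucose and 0.33 for fructose (difference 0.21, adjusted p = 0.0133). Of the 4, Emp1 alone held in the 1-group model.

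Some genes that restrain inflammatory signalling rose, and another, Cyld, fell. On the list of NF-kB subunits and feedback regulators, 5 of 29 tested genes rose and 1, Cyld, fell, against 1.61% and 2.33% of all genes tested. Of the 5, only Socs3, Dusp1 and Il1rn are described here, and they do not stand for the whole list. The list's median was 0.05. The number higher was 3 in each of 8 fits that left out 1 library, those without control 1, 2 or 3, glucose 1, 2 or 3, or fructose 2 or 3. Socs3, which blocks cytokine receptor signalling, was at 158 to 167 CPM in control, 191 to 197 CPM with glucose and 191 to 200 CPM with fructose. The change was 0.27 ± 0.04 (adjusted p = 0.000421), and the sugars differed by 0.01 (95% interval -0.08 to 0.10). Dusp1, a phosphatase that switches off MAP kinases, rose by 0.40 ± 0.07 (adjusted p = 0.00202) from 36.8 to 40 CPM to 44.7 to 51.5 CPM. Il1rn, the interleukin-1 receptor antagonist, had an average of 0.24 ± 0.04 (adjusted p = 0.000505) that came from glucose: 1240 to 1320 CPM in control, 1640 to 1760 CPM with glucose and 1300 to 1400 CPM with fructose, so that glucose and fructose differed by -0.33 (fructose minus glucose, adjusted p = 7.56e-05). Cyld, a deubiquitinase that restrains NF-kB, was at 52.3 to 55.5 CPM in control and 42.6 to 48.9 CPM with sugar (-0.21 ± 0.05, adjusted p = 0.0354); it passed without glucose 2 and in no other fit with 1 library left out (adjusted p = 0.0502 to 0.202 in the rest). Socs3 and Dusp1 held in the 1-group model; Il1rn and Cyld did not.

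Of 22 tested immediate early and AP-1 genes, 4 rose and 1 fell, against 1.61% and 2.33% of all genes tested. Their median was 0.10. The number higher was 1 without control 1, without control 2 or without glucose 3, and 2 without control 3. Ier3, an early response gene that restrains NF-kB and cell death, was at 177 to 185 CPM in control, 222 to 245 CPM with glucose and 246 to 280 CPM with fructose, a change of 0.45 ± 0.05 (adjusted p = 9.88e-05). Fosb, an AP-1 subunit, was at only 1.19 to 1.37 CPM in control and 2.02 to 3.25 CPM with sugar (1.04 ± 0.24, adjusted p = 0.0199); it did not pass without control 1 (adjusted p = 0.0669), control 2 (0.105), control 3 (0.0937) or glucose 3 (0.0505). Nr4a2, an orphan nuclear receptor, rose by 0.55 ± 0.13 (adjusted p = 0.0254) and did not pass in 5 such fits, those without control 1 (adjusted p = 0.0601), control 2 (0.112), control 3 (0.141), glucose 1 (0.0521) or glucose 3 (0.0576). Atf3, a stress-induced repressor, was the gene that fell, from 139 to 148 CPM to 113 to 132 CPM with glucose and 99.9 to 111 CPM with fructose (-0.34 ± 0.05, adjusted p = 0.000597).

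Among the genes that fell with both sugars were several that code for parts of Toll-like receptor signalling. Tifa, an adaptor that activates TRAF6 (chromosome 3, 127789805 to 127832164), was at 21.9, 18 and 18.2 CPM in control, 11.1, 13.4 and 11.5 CPM with glucose and 13.1, 10.2 and 11.6 CPM with fructose. All 6 sugar libraries lay below all 3 controls, with little between the sugars: the change was -0.71 ± 0.10 (adjusted p = 0.000375), and fructose minus glucose was -0.05 (95% interval -0.31 to 0.21). Irf5, a transcription factor for cytokine genes, fell by 0.27 ± 0.04 (adjusted p = 0.00143) from 112 to 119 CPM to 86.9 to 103 CPM, and Ikbke, a kinase that activates IRF3, fell by 0.33 ± 0.06 (adjusted p = 0.00252) from 78.3 to 84.8 CPM to 57.4 to 73.2 CPM. They were the 3 called of 26 tested genes on the Toll-like receptor 4 list, whose median was -0.07, and the 3 held in the 1-group model. Outside that list and picked after their values were seen, Tlr13, the endosomal receptor for bacterial ribosomal RNA, fell by 0.47 ± 0.07 (adjusted p = 0.000318) from 77.2 to 79.4 CPM to 52.8 to 64.2 CPM. Unc93b1, the chaperone that brings such receptors to endosomes, fell by 0.27 ± 0.04 (adjusted p = 0.000597) from 142 to 157 CPM to 123 to 127 CPM. Irf8, a transcription factor of the microglial lineage, fell by 0.31 ± 0.06 (adjusted p = 0.00517), and did not pass without control 2 (adjusted p = 0.0607).

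Of 22 tested inflammatory cytokine and chemokine genes, 4 fell: Tnf, Ccl2, Ccl7 and Cxcl10. Tnf was at 225, 225 and 233 CPM in control, 172, 182 and 166 CPM with glucose and 177, 185 and 199 CPM with fructose. Its change was -0.34 ± 0.05 (adjusted p = 0.000476) with 0.11 between the sugars (95% interval -0.01 to 0.23), and it alone of the 4 held in the 1-group model. The chemokine genes fell with fructose and stayed near control with glucose. Ccl2 was at 648 to 674 CPM in control, 596 to 665 CPM with glucose and 400 to 465 CPM with fructose, and Ccl7 at 303 to 336, 274 to 319 and 185 to 202 CPM; the sugars differed by -0.54 (adjusted p = 1.85e-05) and -0.65 (adjusted p = 5.25e-06). Il1b and Il6 did not pass: Il1b was at 7.29 to 10.3 CPM in control and 6.12 to 13.9 CPM with sugar (adjusted p = 0.914), and Il6 at 0.537 to 0.835 and 0.263 to 1.55 CPM (adjusted p = 0.823).

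Of 21 tested inflammatory effector genes, 5 fell and 1 rose, with a median of -0.11; 3 fell without control 1 or without control 3. Acod1, which makes itaconate and was raised by 4.70 log2 units by LPS in control medium, was at 4000, 3910 and 3740 CPM in control, 3010, 3250 and 2950 CPM with glucose and 3440, 3480 and 3260 CPM with fructose. The groups did not overlap, and the change was -0.27 ± 0.04 (adjusted p = 0.000215). Gpr84, a receptor for medium-chain fatty acids, fell by 0.54 ± 0.08 (adjusted p = 0.000339) from 33.4 to 39.7 CPM to 22 to 28.1 CPM; an antisense gene covers 39.5% of its exonic bases. Cybb, the catalytic subunit of the NADPH oxidase, fell by 0.38 ± 0.04 (adjusted p = 7.81e-05), more with fructose (290 to 317 CPM) than with glucose (353 to 390 CPM) against 429 to 454 CPM in control. Acod1, Gpr84 and Cybb held in the 1-group model. Ptgs2, cyclooxygenase-2, was the gene that rose (0.18 ± 0.05, adjusted p = 0.0485); it did not pass without control 2 (adjusted p = 0.251), control 3 (0.254), glucose 2 (0.0922), glucose 3 (0.0965), fructose 2 (0.0726) or fructose 3 (0.105), and its groups overlapped.

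Nos2, the inducible nitric oxide synthase, lay on opposite sides of control with the 2 sugars. It was at 17.7, 23 and 18.6 CPM in control, 26.2, 28 and 27.2 CPM with glucose and 12.3, 14.6 and 12.7 CPM with fructose. Glucose libraries lay above the controls and fructose libraries below them, so the average was -0.06 ± 0.10 (adjusted p = 0.845). The difference of fructose minus glucose was -1.04 (adjusted p = 4.56e-05). Among the 503 genes called for the average, 9 had opposite signs in the 2 sugar groups.

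Several surface and lysosomal genes of macrophages fell with both sugars. Csf1r, the receptor for the growth factors that keep microglia alive, was at 470, 477 and 469 CPM in control, 383, 384 and 391 CPM with glucose and 406, 424 and 400 CPM with fructose. The control libraries were tightly grouped and lay above all the others; the change was -0.25 ± 0.04 (adjusted p = 0.00044). It was 1 of the 2 called genes of 11 tested homeostatic microglia genes, whose median was -0.18; the count was 1 without control 1. Cx3cr1, the fractalkine receptor on the same list, was at 1.97 to 4 CPM in control and 0.956 to 2.1 CPM with sugar and did not pass (-0.92 ± 0.26, adjusted p = 0.0567). Of 23 tested genes linked to disease-associated microglia, 4 fell; the number was 2 without control 1, 2 or 3 or fructose 3. Igf1, insulin-like growth factor 1, fell by 0.31 ± 0.05 (adjusted p = 0.00202) from 158 to 170 CPM to 122 to 151 CPM, and Cst7, cystatin F, by 0.36 ± 0.06 (adjusted p = 0.00143) from 52.7 to 55.4 CPM to 38.4 to 47.1 CPM. Trem2, the lipid receptor of that state, was at 89.3 to 102 CPM in control and 87.9 to 104 CPM with sugar (0.01 ± 0.05, adjusted p = 0.944). Apoe had all 6 sugar libraries above the controls (6.3 to 28.3 against 5.14 to 5.67 CPM) yet did not pass (1.22 ± 0.40, adjusted p = 0.114), with the highest levels in glucose 3 and fructose 1.

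Mpeg1, the pore-forming protein perforin-2 of macrophages, was at 180 to 187 CPM in control, 142 to 151 CPM with glucose and 128 to 136 CPM with fructose (-0.40 ± 0.04, adjusted p = 1.97e-05). Siglec1, the sialic acid receptor of macrophages, fell by 0.68 ± 0.11 (adjusted p = 0.00141) from 12.5 to 14.4 CPM to 6.31 to 10.2 CPM. Fcgr2b, the inhibitory receptor for immunoglobulin G, fell by 0.49 ± 0.06 (adjusted p = 9.88e-05) from 54.1 to 56.2 CPM to 34.4 to 43.3 CPM, and Cd38, an enzyme that consumes NAD, by 0.47 ± 0.07 (adjusted p = 0.000345) from 41.7 to 44.5 CPM to 27.3 to 34.7 CPM; both were picked after their values were seen. Lysosomal acid lipase, Lipa, was 1 of the 6 genes that fell of 31 tested lysosome and phagocytosis genes, of which 1 rose (-0.22 ± 0.04, adjusted p = 0.00231), a count that was 2 without control 1, 3 without control 2 or control 3, and 4 without glucose 3 or fructose 3. Mpeg1, Siglec1, Lipa, Csf1r, Igf1 and Cst7 held in the 1-group model. Fcgr2b and Cd38 passed it too, which adds no support since they were picked after their values were seen.

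Genes of other roles also fell with both sugars. Bcl2, which blocks mitochondrial cell death (chromosome 1, 106538178 to 106714274, minus strand), was at 7.88, 10.7 and 8.9 CPM in control, 5.63, 5.22 and 5.99 CPM with glucose and 5, 6.26 and 6.38 CPM with fructose. The groups did not overlap, the change was -0.67 ± 0.12 (adjusted p = 0.00285), and 0.07 lay between the sugars (95% interval -0.25 to 0.38). Fgd4, an activator of the small GTPase CDC42, and Plxna1, a semaphorin receptor, were picked after their values were seen. Fgd4 was at 35.9, 37.6 and 33.5 CPM in control and 22.4 to 25.3 CPM with sugar (-0.59 ± 0.08, adjusted p = 0.000161), and Plxna1 at 160 to 165 CPM and 109 to 132 CPM (-0.42 ± 0.06, adjusted p = 0.000215). Aldh1l2, the mitochondrial enzyme that turns 10-formyltetrahydrofolate into carbon dioxide and tetrahydrofolate, fell by 0.54 ± 0.07 (adjusted p = 9.88e-05) from 32.8 to 36.3 CPM to 21.4 to 25.9 CPM; fructose minus glucose was 0.21 (95% interval 0.04 to 0.38, adjusted p = 0.188), and it was the 1 called of 20 tested genes of serine and folate metabolism. The unnamed gene 1600014C10Rik fell from 43.8 to 46.4 CPM to 31.1 to 34.9 CPM with glucose and 23.1 to 26.4 CPM with fructose (-0.63 ± 0.06, adjusted p = 2.29e-05), and its fall was larger with fructose (difference -0.42, adjusted p = 0.00381). The 5 genes of this paragraph held in the 1-group model. For Fgd4 and Plxna1 this adds no support, since they were picked after their values were seen.

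Interferon-stimulated genes made up a large block of the lower genes. Of 39 tested, 34 were lower, against 2.33% of all genes tested, with a median of -0.54 against 0.0011 over all genes. Their medians were -0.16 for glucose and -0.87 for fructose. Of the 39, 35 were called lower with fructose than with glucose, against 1.88% of all genes tested. In 12 of the 39 all 6 sugar libraries lay below all 3 controls, against 3.51% of all genes tested. Between 30 and 35 passed in the fits that kept the 2 sugars apart and left out a library, changed the scaling, filter or tool, or used the 9 LPS-treated libraries alone. In the 1-group model 1 did, Tap1, the peptide transporter of antigen presentation (-0.62 ± 0.07, adjusted p = 9.88e-05 in the main model; -0.38 with glucose and -0.86 with fructose).

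Ifit2, which binds RNA and blocks translation (chromosome 19, 34550694 to 34576419), was at 328, 337 and 314 CPM in control, 262, 313 and 250 CPM with glucose and 112, 132 and 106 CPM with fructose. The glucose libraries lay just under the controls and the fructose libraries far under both. Its average was -0.87 ± 0.07 (adjusted p = 1.68e-06), made of -0.25 for glucose (adjusted p = 0.154) and -1.48 for fructose (adjusted p = 5.81e-09). Ifit3, of the same family, was at 118 to 139 CPM in control, 105 to 125 CPM with glucose and 45.3 to 51.1 CPM with fructose (-0.76 ± 0.06, adjusted p = 2.72e-06). Mx1, a GTPase that restrains influenza virus, was at 10.5 to 12.9 CPM, 8.5 to 9.82 CPM and 2.59 to 4.47 CPM in the same order (-1.01 ± 0.16, adjusted p = 0.000896). Rsad2, the antiviral enzyme viperin, had 0.08 for glucose and -1.03 for fructose (average -0.47 ± 0.07, adjusted p = 0.000416), and its neighbour Cmpk2, a mitochondrial nucleotide kinase, had -0.07 and -1.22 (average -0.64 ± 0.08, adjusted p = 9.88e-05). Isg15, a ubiquitin-like protein, averaged -0.62 ± 0.07 (adjusted p = 3.08e-05), Ddx58, the RNA sensor RIG-I, -0.55 ± 0.06 (adjusted p = 2.11e-05), and Oasl2, an oligoadenylate synthetase-like protein, -0.67 ± 0.06 (adjusted p = 1.47e-05). Cxcl10, the chemokine ligand of CXCR3, was at 183 to 217 CPM in control, 169 to 214 CPM with glucose and 73.7 to 83.5 CPM with fructose (-0.71 ± 0.07, adjusted p = 2.11e-05). Phf11b, Ifi211 and the chemokine receptor-like gene Ccrl2 were also lower, at -0.67 ± 0.08, -0.75 ± 0.14 and -0.68 ± 0.11 (adjusted p = 9.88e-05, 0.00401 and 0.00162). None of the genes of this paragraph held in the 1-group model.

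**Figure D3:**
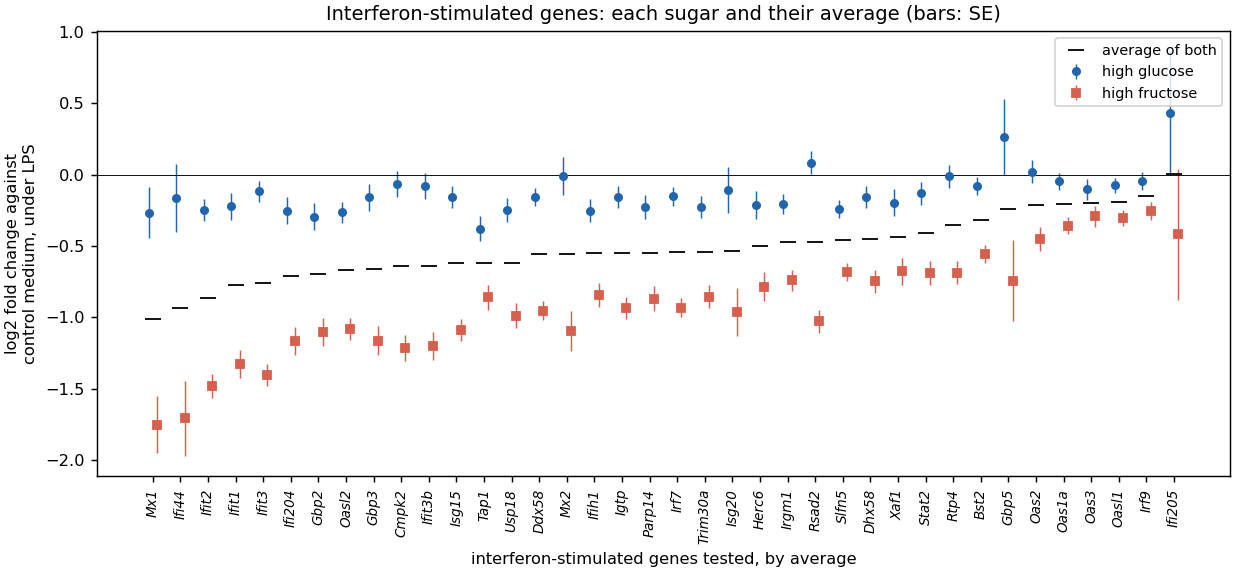
Log2 fold change against control medium under LPS (y axis) of 38 of the 39 tested interferon-stimulated genes (x axis), with circles for high glucose, squares for high fructose, bars for the standard error and a dash for the average. Every fructose value lies below its glucose value, and glucose values lie near 0, with a median of -0.16 over the 39.

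The promoters of Ifit3 and Cxcl10 are shown because these genes fell together with fructose and hold a common form of the interferon-stimulated response element, which binds interferon-activated transcription factors. The letters searched were GAAA, 2 bases of any kind and GAAA again, on either strand; this motif was added after the data were seen. It occurs in 3.99% of the 27025 genes with a RefSeq promoter and in 19 of the 30 interferon-stimulated genes of the list that have one there. Of the 79 named called genes with a promoter there, 10 held a match, among them Edn1 and Mmp13, which rose. Ifit2, Oasl2, Cmpk2 and Tap1, lower with fructose than with glucose, held none. Capitals mark the matches, 156 to 147 and 122 to 113 bases before the start in Ifit3 (opposite strand) and 213 to 204 bases before it in Cxcl10.
Ifit3: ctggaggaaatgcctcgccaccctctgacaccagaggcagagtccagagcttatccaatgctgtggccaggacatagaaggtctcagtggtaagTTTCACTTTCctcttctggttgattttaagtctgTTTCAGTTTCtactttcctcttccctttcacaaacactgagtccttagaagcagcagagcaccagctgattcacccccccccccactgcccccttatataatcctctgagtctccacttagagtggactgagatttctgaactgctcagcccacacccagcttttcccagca
Cxcl10: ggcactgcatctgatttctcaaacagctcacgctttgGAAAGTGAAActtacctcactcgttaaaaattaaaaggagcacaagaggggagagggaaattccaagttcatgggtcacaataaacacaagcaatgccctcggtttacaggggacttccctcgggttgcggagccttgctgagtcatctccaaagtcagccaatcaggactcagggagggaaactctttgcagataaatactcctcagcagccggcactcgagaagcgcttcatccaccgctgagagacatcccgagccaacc

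The best known targets of glucose sensing showed the reverse, with an average that came from glucose. Txnip, which binds thioredoxin and lowers glucose uptake (chromosome 3, 96557957 to 96561883), was at 66.6, 60.8 and 63.6 CPM in control, 96.3, 92.6 and 88.5 CPM with glucose and 65.4, 65.3 and 65.3 CPM with fructose. The glucose libraries stood above all the others and the fructose libraries inside the control range. The average of 0.29 ± 0.05 passed (adjusted p = 0.00162), yet it joined 0.54 for glucose (adjusted p = 9.25e-05) with 0.04 for fructose (adjusted p = 0.83), and the sugars differed by -0.50 (adjusted p = 2.94e-05). An antisense gene covers 19.4% of the exonic bases of Txnip. Its relative Arrdc4, another arrestin-domain protein, was at 33.6, 33.6 and 31.9 CPM in control, 54.5, 45.5 and 52.3 CPM with glucose and 37.2, 38 and 33.3 CPM with fructose (0.37 ± 0.07, adjusted p = 0.00349; 0.62 for glucose and 0.13 for fructose). They were the 2 called of 6 tested genes on the glucose-sensing list, and neither held in the 1-group model.

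The promoters of Txnip and Arrdc4 are shown because MondoA and ChREBP bind pairs of E-box-like letters known as carbohydrate response elements. A paired form, CACGNG followed after 5 bases of any kind by CACGNG, on either strand, occurs in 16 of 32851 RefSeq promoters (0.0487%), and Txnip is among them, 85 to 69 bases before its start. Arrdc4 has a single CACGTG 193 to 188 bases before its start, letters found in 7.15% of promoters. Capitals mark these matches.
Txnip: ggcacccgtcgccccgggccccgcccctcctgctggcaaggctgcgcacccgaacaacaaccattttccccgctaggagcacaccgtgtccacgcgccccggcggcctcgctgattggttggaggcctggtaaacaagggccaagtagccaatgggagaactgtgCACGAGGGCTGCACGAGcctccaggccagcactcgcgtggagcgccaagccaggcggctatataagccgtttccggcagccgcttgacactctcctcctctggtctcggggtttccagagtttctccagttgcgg
Arrdc4: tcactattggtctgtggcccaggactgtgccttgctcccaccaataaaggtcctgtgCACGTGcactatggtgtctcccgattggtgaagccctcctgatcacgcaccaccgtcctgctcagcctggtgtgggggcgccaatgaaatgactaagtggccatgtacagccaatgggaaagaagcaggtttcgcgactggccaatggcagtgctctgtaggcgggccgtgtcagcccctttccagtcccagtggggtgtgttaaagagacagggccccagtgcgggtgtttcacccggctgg

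Slc7a11, the cystine importer, was also moved by glucose for the most part: 180 to 193 CPM in control, 111 to 132 CPM with glucose and 157 to 185 CPM with fructose (average -0.36 ± 0.06, adjusted p = 0.00255; fructose minus glucose 0.44, adjusted p = 0.00224). Genes whose rise came from fructose included Tubb3, a tubulin best known from neurons and picked here as a member of the neuron marker list, and Ndrg1, a hypoxia-inducible gene. Tubb3 was at 10.7 to 13.8 CPM in control, 13 to 15.8 CPM with glucose and 28.2 to 32.1 CPM with fructose (0.73 ± 0.11, adjusted p = 0.000421; difference 1.07). Of the 10 neuron markers, whose summed level is given above, 4 were tested and Tubb3 alone passed; 5 of the 10 had under 10 counts. Ndrg1 rose from 38 to 40 CPM in control to 56.8 to 60.8 CPM with fructose, with 39.3 to 46.7 CPM with glucose (0.40 ± 0.07, adjusted p = 0.00165).

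Osmotic response genes, targets of the transcription factor NFAT5 together with water channels, had a median of 0.24 (0.17 for glucose and 0.28 for fructose). Of 14 tested, 5 rose, against 1.61% of all genes tested. An unadjusted p below 0.05 was reached by 8, all 8 upward, against 1908 of all 12766 genes tested in either direction. The number called was 2 without control 2 or without control 3. Slc6a12, the betaine transporter, was at 163, 164 and 168 CPM in control, 183, 184 and 178 CPM with glucose and 208, 200 and 214 CPM with fructose. The 3 groups did not overlap (0.23 ± 0.04, adjusted p = 0.00179; fructose minus glucose 0.19, adjusted p = 0.021). Slc38a2, a transporter of neutral amino acids, was at 491 to 505 CPM in control and 532 to 645 CPM with sugar (0.25 ± 0.05, adjusted p = 0.00464) and held in the 1-group model. Akr1b3, aldose reductase, which makes sorbitol from glucose, rose by 0.24 ± 0.05 (adjusted p = 0.00778) from 204 to 231 CPM to 236 to 272 CPM, and did not pass without control 2 (adjusted p = 0.0863) or control 3 (0.0748). Hspa1b, a heat shock protein, rose by 0.46 ± 0.10 (adjusted p = 0.012) and did not pass without control 1 (adjusted p = 0.0536), control 2 (0.0607) or control 3 (0.0733). The values of Akr1b3 and Hspa1b are uncertain, since 97.5% and 78.5% of their transcripts match near-identical copies. Aqp1, a water channel, was at 1.43 to 2.42 CPM in control, 1.66 to 2.82 CPM with glucose and 4.4 to 6.58 CPM with fructose (0.97 ± 0.24, adjusted p = 0.0294); it did not pass without control 2 (adjusted p = 0.172), control 3 (0.17), glucose 2 (0.0619), fructose 1 (0.0516) or fructose 3 (0.0683).

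Of 12 tested genes of sugar transport, hexokinases and the fructose and polyol steps, 2 rose (Slc2a1 and Akr1b3) and 1 fell (Slc2a6), with a median of -0.02. The number that rose was 0 without control 2 or control 3, 1 without control 1, glucose 2, glucose 3 or any 1 fructose library, and 3 without glucose 1. Slc2a1, the glucose transporter GLUT1, was at 250, 255 and 250 CPM in control, 272, 278 and 287 CPM with glucose and 278, 280 and 271 CPM with fructose. All 6 sugar libraries lay above the controls, but the change was 0.14 ± 0.04 (adjusted p = 0.0391), and it did not pass without control 1 (adjusted p = 0.159), control 2 (0.118), control 3 (0.177), glucose 2 (0.0537), glucose 3 (0.0928), fructose 1 (0.0735), fructose 2 (0.0552) or fructose 3 (0.0518). Slc2a6, the lysosomal hexose transporter GLUT6, fell by 0.31 ± 0.05 (adjusted p = 0.000686) from 131 to 147 CPM to 110 to 118 CPM, with -0.30 for glucose and -0.32 for fructose. Hk2, hexokinase 2, was at 132 to 150 CPM in control and 119 to 149 CPM with sugar (adjusted p = 0.595), and Khk, ketohexokinase, at 23.4 to 27.5 and 25 to 33.2 CPM (adjusted p = 0.463). Slc2a5, the fructose transporter GLUT5, had 0 to 2 counts per library and was not tested. Across 6 lists of core metabolism and chaperones (glycolysis, pentose phosphate pathway, nuclear and mitochondrial genes of oxidative phosphorylation, endoplasmic reticulum chaperones and cytosolic heat shock proteins), 0 of 110 tested genes passed in edgeR. At an unadjusted p below 0.05 there were 7, and DESeq2 called 3. Over all 12766 genes tested, 3.94% passed in edgeR and 1908 had an unadjusted p below 0.05. The pool leaves out the list of the tricarboxylic acid cycle, described below, on which 2 of 26 tested genes were called. The 0 of 110 thus depends on which lists were pooled and is not a result about core metabolism as a whole. Gapdh, the glycolytic enzyme often used as a reference gene, was at 125, 11 and 212 CPM in control, 10.7, 13.9 and 13.5 CPM with glucose and 236, 181 and 298 CPM with fructose. Control 2 lay among the glucose libraries, far from the other controls. The average was -1.08 ± 0.49 (adjusted p = 0.31), though it passed without control 2 (adjusted p = 0.00388) and with no filter on low counts, and fructose exceeded glucose by 4.23 (adjusted p = 0.000922). These values are uncertain, since 88% of its transcript matches near-identical copies.

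Of 26 tested genes on the list of the tricarboxylic acid cycle, 1 rose and 1 fell, with a median of -0.01. Acly, which makes cytosolic acetyl-CoA from citrate, rose by 0.19 ± 0.04 (adjusted p = 0.00887; 0.0842 without control 1). Idh1, cytosolic isocitrate dehydrogenase, fell by 0.20 ± 0.05 (adjusted p = 0.0272), and did not pass without control 1 (adjusted p = 0.192), control 2 (0.0795), control 3 (0.0537), glucose 3 (0.0623) or fructose 3 (0.0576). Of 23 tested genes of cholesterol synthesis, 2 fell, 18 lay below 0 and 9 had an unadjusted p below 0.05, all 9 downward. Over all 12766 genes tested, 2.33% were called lower, 6322 lay below 0 and 1908 had an unadjusted p below 0.05 in either direction. Insig1, which holds the sterol sensor in the endoplasmic reticulum, fell by 0.17 ± 0.04 (adjusted p = 0.00971; 0.0752 without control 1 and 0.0636 without control 2). Mvk, mevalonate kinase, fell by 0.24 ± 0.06 (adjusted p = 0.0332), and did not pass without control 1 (adjusted p = 0.194), control 2 (0.0746), control 3 (0.113), glucose 3 (0.0791), fructose 2 (0.057) or fructose 3 (0.0582). The count of 2 was 0 without control 1 or control 2, 1 without control 3, glucose 3, fructose 2 or fructose 3, and 5 without glucose 2. Scd2, a fatty acid desaturase and the 1 called of 19 tested genes of fatty acid synthesis, fell by 0.19 ± 0.03 (adjusted p = 0.00166) from 1460 to 1560 CPM to 1270 to 1400 CPM. Of 18 tested amino acid transporters, 2 rose, Slc38a2 and the arginine transporter Slc7a1, and 2 fell, Slc7a11 and Slc43a2, with a median of 0.03; the number that rose was 1 in the 7 fits without a control library, glucose 2, glucose 3, fructose 1 or fructose 2. Slc7a1 rose by 0.14 ± 0.04 (adjusted p = 0.0424), and in those 7 fits its adjusted p was 0.0658 to 0.212. Slc43a2, a transporter of large neutral amino acids, fell by 0.36 ± 0.05 (adjusted p = 0.000303) from 87.9 to 94.4 CPM to 63.5 to 78.2 CPM and held in the 1-group model. Of 19 tested targets of NRF2, the regulator of antioxidant genes, 5 fell, with a median of -0.07; among them were Prdx1, a peroxiredoxin (-0.22 ± 0.04, adjusted p = 0.00627), and the gene of NRF2 itself, Nfe2l2 (-0.26 ± 0.05, adjusted p = 0.00773). Without control 1 none of the 19 passed in edgeR (Prdx1 adjusted p = 0.0704 and Nfe2l2 0.0748), with 2 without control 3 and 3 in the fits without control 2, glucose 3, fructose 2 or fructose 3; in the main model 11 had an unadjusted p below 0.05 and DESeq2 called 5. Of 33 tested genes of DNA replication and mitosis, 4 fell and 10 were called lower with fructose than with glucose, against 2.33% and 1.88% of all genes tested. Rrm2, a subunit of ribonucleotide reductase, was at 230 to 246 CPM in control, 222 to 239 CPM with glucose and 187 to 202 CPM with fructose (-0.17 ± 0.04, adjusted p = 0.0199), and did not pass without control 1 (adjusted p = 0.134), control 2 (0.119) or fructose 3 (0.0505). The count of 4 was 1 without control 1, 0 without control 2 and 2 without fructose 3; in the main model 11 of the 33 had an unadjusted p below 0.05, and DESeq2 called 5. Ddx17, an RNA helicase, was the 1 called of 34 tested splicing genes (0.21 ± 0.04, adjusted p = 0.00545; 0.0557 without control 1).

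**Figure D4:**
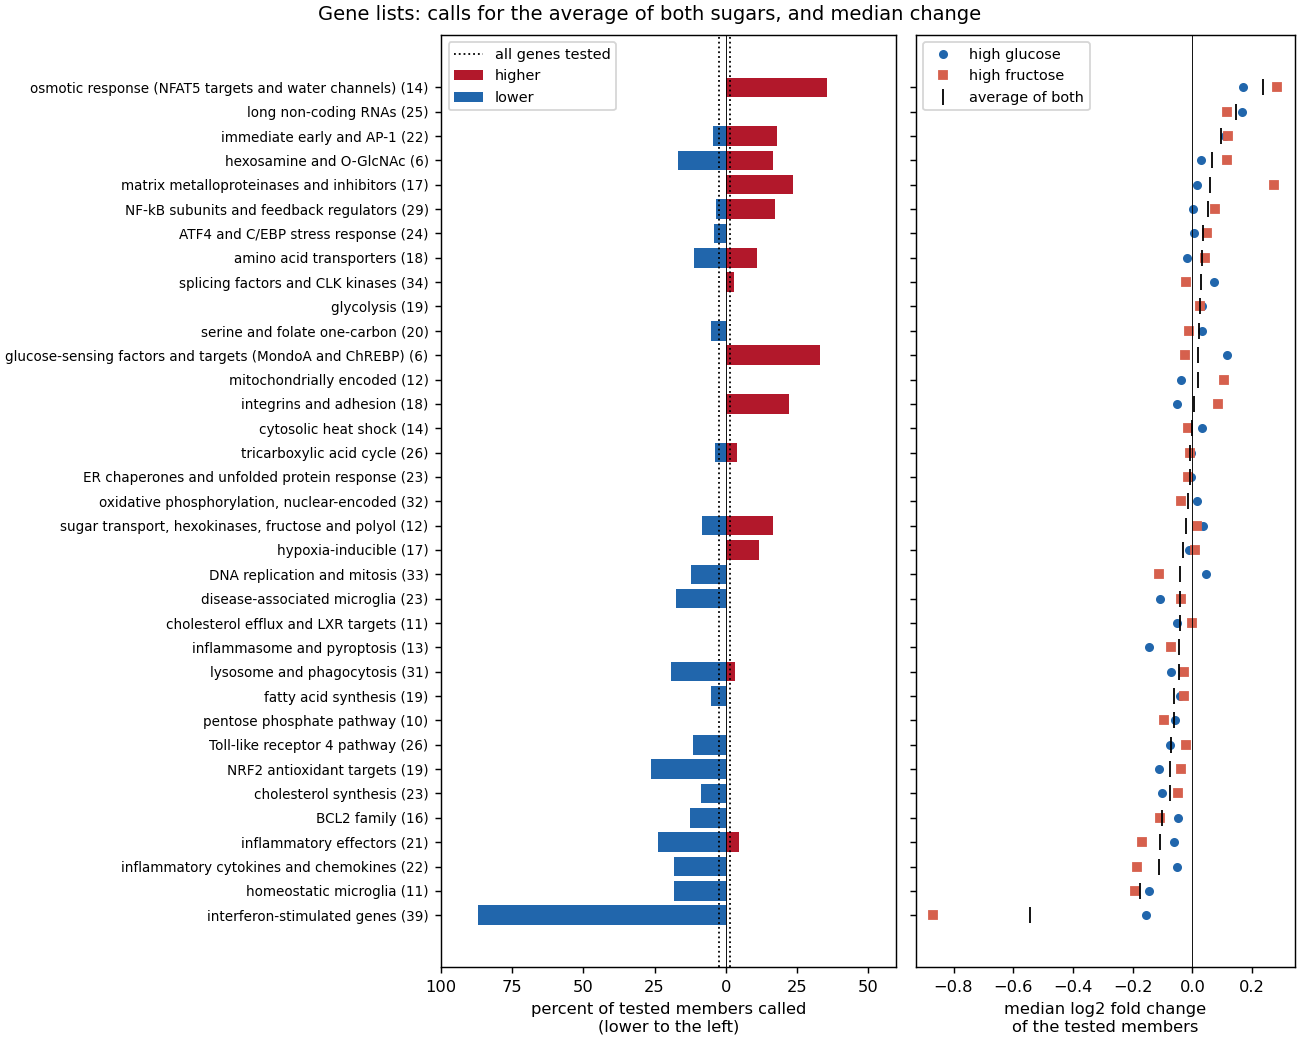
Left, percent of the tested members of each of 35 gene lists (number tested in brackets) called higher (red, to the right) or lower (blue, to the left) for the average of both sugars, with dotted lines at 1.61% and 2.33%, the shares over all genes tested. Right, median log2 fold change of each list for glucose (circles), fructose (squares) and their average (bars); the interferon-stimulated genes lie at -0.16, -0.87 and -0.54 and the osmotic response genes at 0.17, 0.28 and 0.24.

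Further genes with large average changes lay at low levels, where leaving out a library often ended the call. A4galt, a glycolipid synthase, was at 2.99 to 4.28 CPM in control and 5.39 to 8.93 CPM with sugar (0.90 ± 0.18, adjusted p = 0.00702; 0.0575 without control 2 and 0.0613 without control 3). Ankle1, a nuclease, rose by 0.81 ± 0.18 (adjusted p = 0.0124; 0.1 without control 1), and Tcp11l2 by 0.69 ± 0.16 (adjusted p = 0.0149; 0.0721 without control 1 and 0.116 without control 2). Anxa8, an annexin, was at 2.3 to 2.39 CPM in control, 2.46 to 3.51 CPM with glucose and 5.13 to 6.6 CPM with fructose (0.83 ± 0.21, adjusted p = 0.0354), and lost its call without control 1 (adjusted p = 0.135), control 2 (0.14), control 3 (0.113), glucose 3 (0.083), fructose 1 (0.0738) or fructose 2 (0.0631). Among the lower genes, Gbp9, a guanylate-binding protein, was at 3.82 to 5.65 CPM in control and 1.6 to 3.62 CPM with sugar (-0.99 ± 0.22, adjusted p = 0.0156; 0.112 without control 1 and 0.117 without control 2). Tnfsf10, the death ligand TRAIL, fell by 0.82 ± 0.18 (adjusted p = 0.0109; 0.108 without control 1 and 0.0619 without control 2). Tarm1, an activating receptor of myeloid cells, fell by 0.87 ± 0.21 (adjusted p = 0.0212; 0.0506 without control 1, 0.143 without control 2 and 0.0649 without control 3). Col5a3, a collagen chain, Trank1 and Gprc5a, an orphan receptor, had all 6 sugar libraries above the controls, with changes of 0.82, 0.63 and 0.77 (adjusted p = 0.0272, 0.0309 and 0.046). Col5a3 passed without glucose 3 or fructose 1 only; its adjusted p was 0.153 without control 1, 0.112 without control 2, 0.0743 without control 3 and 0.0502 to 0.0667 without glucose 1, glucose 2, fructose 2 or fructose 3. Trank1 did not pass without control 1 (adjusted p = 0.185), control 2 (0.159), glucose 3 (0.0738) or fructose 1 (0.0658). Gprc5a passed without glucose 1 only; its adjusted p was 0.207 without control 1, 0.179 without control 2, 0.104 without control 3 and 0.0572 to 0.109 without glucose 2, glucose 3 or any 1 fructose library.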

How the data were processed

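RNA was sequenced from 12 libraries of N9 cells. The authors deposited whole-number read counts per gene, made with featureCounts 1.5.0-p3 on genome build mm10, per the submitters' processing notes; the aligner and strand setting, not given in the sources used here, could affect counts of overlapping genes. A deposited FPKM table was not used. Genes with enough counts (filterByExpr) were scaled by TMM and fitted with edgeR 4.0.16 (R 4.3.3) by quasi-likelihood, with a coefficient for each of the 4 groups over all 12 libraries, and p-values were adjusted by Benjamini-Hochberg over the 12766 genes tested. Printed levels are TMM-scaled CPM (counts per 1000000). The ± values beside fold changes are standard errors. Alternatives were RLE, upper-quartile and no scaling, no filter, the 9 LPS-treated libraries alone, a replicate block, each library left out, the 6 sugar libraries as 1 group, and DESeq2 1.42.0. Coordinates are from GENCODE release 21 for mouse (GRCm38) and promoters from RefSeq (GRCm38.p6); 79 of the 96 named called genes had a promoter there. Shared sequence was found with BLAST (98% identity over at least 75 bases). Named genes were the 12 largest rises and falls among called protein-coding genes that averaged 50 counts or more and whose groups did not overlap, the 10 smallest p-values, up to 4 called genes per list, key sugar and inflammation genes and the 5 with the largest differences between sugars; where the text says so, others were picked after their values were seen. A few genes the rule names are not reported here. The members and lists were chosen with earlier results of these data known. Where 6 and 3 libraries are compared by permutation, the smallest two-sided p is 0.0119.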

Additional observations from a re-analysis of the deposited data

Results flagged for a closer look

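For 37 of the genes named above, fructose and glucose differed by the edgeR test of the difference itself (adjusted p below 0.05), so their average over both sugars stands for unlike effects. All values are fructose minus glucose on the log2 scale. Among genes lower with fructose were the antiviral genes Mx1 (-1.49), Ifit3 (-1.29), Ifit2 (-1.24), Cmpk2 (-1.15), Rsad2 (-1.11), Isg15 (-0.94), Oasl2 (-0.82), Ddx58 (-0.80), Ifi211 (-0.74), Phf11b (-0.69) and Tap1 (-0.48). The signalling genes Cxcl10 (-1.30), Tnfsf10 (-0.91), Ccl7 (-0.65), Ccrl2 (-0.58), Ccl2 (-0.54) and Il1rn (-0.33) were lower with fructose too. So were the nitric oxide synthase Nos2 (-1.04), the oxidase subunit Cybb (-0.31), the glucose-responsive genes Txnip (-0.50) and Arrdc4 (-0.49), the uncharacterised 1600014C10Rik (-0.42) and the replication gene Rrm2 (-0.26). Among genes higher with fructose than with glucose were Gapdh (4.23, on reads that near-identical copies share), the water channel Aqp1 (1.33), the annexin Anxa8 (1.10), the tubulin Tubb3 (1.07), Mmp19 (0.80), Slc7a11 (0.44), Ndrg1 (0.42), Vwf (0.42), Ank (0.39), Emp1 (0.38), the annexin Anxa2 (0.38), Cd44 (0.30), Itgb7 (0.21) and the betaine transporter Slc6a12 (0.19). With 3 libraries a group, no single library was tested for lying far from the rest of its group.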

How the results depend on the processing

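The counts of 205 higher and 298 lower genes were 190 to 223 and 285 to 322 under RLE, upper-quartile or no scaling, 297 and 372 with no filter, 163 and 259 from the 9 LPS-treated libraries alone, and 244 and 341 with DESeq2. No scaling moved the median of all genes by over 0.1. With the 6 sugar libraries as 1 group they were 55 and 59, since differences between the sugars then count as spread. Leaving out 1 library gave 105 to 203 higher and 164 to 306 lower genes; the lowest counts came without a control: 105 and 183 without control 1, 109 and 164 without control 2, 112 and 200 without control 3. Of the 503 called genes, 207 were called in all 9 of these fits (81 higher, 126 lower). Fructose against glucose gave 332 to 435 genes with 1 library left out, against 475 in the main model. With the replicate number as a block, 296 genes were higher, 398 lower and 735 differed between the sugars, more than in the main model. Deviations of same-numbered libraries correlated at -0.194 to 0.113, and 4 of 9 libraries lay closest to their own number. The main model did not take the numbers as pairs, and whether they mark a batch was not tested. Of 105 named genes, 96 were called, 62 of them in every fit with 1 library left out and 38 under every alternative. Both the 62 and the 38 include Prrg4, Igsf9b, Fgd4, Plxna1, Fcgr2b, Tlr13, Cd38 and Unc93b1, which were picked after their values were seen. Prrg4 and Igsf9b were picked for small p-values in 1 of these alternatives. For genes picked this way, passing the alternatives adds no support. None of the 96 changed direction under the alternatives run. Uncalled genes changed sign: Gapdh was 0.1118 with the sugar libraries as 1 group, Nos2 was 0.0274 there and ran from -0.1388 to 0.0575 with 1 library left out (above 0 without control 2), Il1b from -0.0664 to 0.171 (below 0 without control 3, glucose 2 or fructose 1) and Trem2 from -0.0243 to 0.07 (below 0 without control 1, control 2, glucose 1 or fructose 1). The cause was not tested. Genes at a few CPM rest on few counts, and many of those named lost their call when 1 control was left out.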
